A study of Macaca fascicularis with 15 samples.

Results

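Glycolysis splits glucose into pyruvate in the cytosol, and 5 genes of that pathway are described here: ALDOC, PGK1, TPI1, ENO2 and HK2. They were chosen by name, as the rows with these symbols in the tables of the series, 5 of the 12986 genes that the tables hold after cleaning. Each has 1 row in all 11 tables, and all 5 symbols match a protein-coding gene in the RefSeq annotation of this species. RNA sequencing was done on wild-type cynomolgus monkeys (Macaca fascicularis), with tissue stored in RNALater, and every sample came from 1 eye. The tables cover whole eye (2 libraries), whole retina (2), central retina (4, named macula in the table headers) and peripheral retina (3), and 4 further records of whole eye and whole retina were not analysed here. All groups share the wild-type genotype and no treatment is named. The sources used here give no age, sex, animal or batch, and do not tie the regional samples to animals. The p-values therefore describe the spread among these libraries, part or all of which may be technical.

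Hexokinase, of which HK2 is an inducible form, traps glucose in the cell as glucose 6-phosphate. Aldolase later splits a phosphorylated sugar, and ALDOC is the aldolase form best known from brain and retina. Triose phosphate isomerase (TPI1) interconverts the products, phosphoglycerate kinase (PGK1) makes the first ATP, and enolase, of which ENO2 is the neuronal form, makes phosphoenolpyruvate. The retina is known for turning much of its glucose into lactate even when oxygen is present, a trait described above all for photoreceptors. The central retina is dense in cones and ganglion cells, and at its centre it has no blood vessels of its own.

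The tables give 1 normalized value per gene and library, with no stated unit, so levels are compared between libraries for 1 gene and never between genes. Between 171 and 501 genes were listed at 0 in a library, with the most in central retina replicate 1, and absolute depth is not given. Rod, cone and other markers were checked against the labels. The summed level of 8 rod genes was 10780 to 25952 over all libraries. The 3 pigment epithelium genes with a row (RPE65, TTR and RGR) summed to 1814 to 2047 in whole eye and 1725 to 1848 in whole retina, but only to 50.2 to 123 in central retina and, in the peripheral libraries, 296 to 438. The 5 lens genes summed to 2304 to 2399 in whole eye, 305 to 469 in whole retina and at most 3.76 in a regional library, with LIM2 at 0 in all 4 central libraries. The whole retina libraries thus held pigment epithelium and lens RNA at levels above those of every regional library. In such bulk samples fewer cells of a type and less RNA per cell cannot be told apart.

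Central retina had the highest mean of the 4 groups for each of the 5 genes. The other groups followed in a different order from gene to gene.

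ALDOC was listed at 1300.24, 1218.91, 1200.44 and 1851.04 in central retina replicates 1 to 4 and at 663.02, 572.1 and 732.86 in peripheral retina replicates 1 to 3. It was 638.46 and 600.58 in the whole retinas and 661.49 and 654.55 in the whole eyes. Every central library thus lay above all 7 others, while the ranges of whole eye, peripheral retina and whole retina were close together and the neighbours in that order overlapped.

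TPI1 was 45.28, 42.51, 51.63 and 59.55 in central retina and 26.5, 21.21 and 29.78 in peripheral retina. The whole retinas held 12.6 and 14.05 and the whole eyes 14.36 and 11.95. For this gene central lay above peripheral retina and peripheral above whole retina with no overlap, while whole retina and whole eye overlapped. Both whole retina libraries were below each of the 7 regional libraries, a placing shared by 13.9% of the 11925 genes tested. Among the 5 enzymes only TPI1 showed it.

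ENO2 was 1992.37, 1843.5, 2136.68 and 2581.81 in central retina and 1439.31, 1263.99 and 1811.7 in peripheral retina. The whole retinas held 1333.5 and 1262.83 and the whole eyes 1196.37 and 1102.31. All central libraries were above all others. Peripheral and whole retina overlapped, and both whole retinas were above both whole eyes.

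PGK1 had another order. Its values were 235.05, 298.91, 232.07 and 330.82 in central retina, 247.92 and 268.91 in the whole eyes, 196.9 and 233.72 in the whole retinas and 171.01, 150.78 and 155.08 in peripheral retina. Central retina overlapped with both whole eye and whole retina, and only the peripheral libraries stood apart, below all 8 others.

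HK2 had the widest relative spread of the 5 genes within the regions. It was 71.41, 27.85, 44.44 and 52.6 in central retina and 18.49, 48.92 and 24.6 in peripheral retina, so that peripheral replicate 2 lay above 2 of the 4 central libraries. The whole retinas held 21.82 and 16.76 and the whole eyes 13.98 and 15.81. Central retina was above whole retina and whole eye without overlap.

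**Figure D1:**
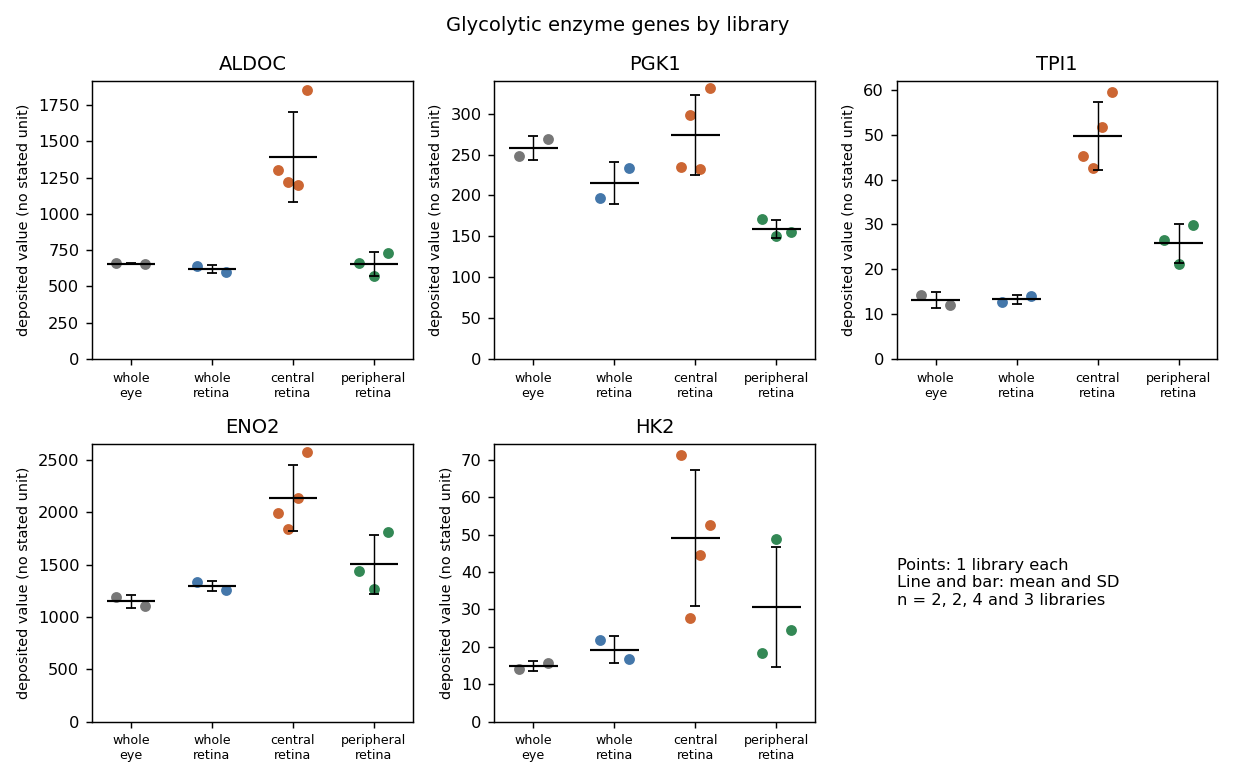
Deposited values (vertical axes from 0, no stated unit) of the 5 genes in each library of the 4 groups, with points for libraries, a line for the mean and a bar for the SD. Central retina is apart from the other groups for ALDOC, TPI1 and ENO2, PGK1 is lowest in peripheral retina, and HK2 overlaps between the regions.

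Central retina, which holds the area of sharpest vision, was set against peripheral retina. Of the 5 genes, 3 were higher in central retina (ALDOC, TPI1 and PGK1), 0 were lower and 2 did not pass. The test was limma's linear model on log2(value + 1) over all 11925 genes, with a Benjamini-Hochberg adjusted p under 0.05, and 4 of the 5 were higher and 0 lower by limma at an unadjusted p under 0.05. Over all genes 12.5% were called higher and 8.76% lower. All central libraries lay above all peripheral ones for 4 of the 5, as they did for 19% of all genes, with the opposite placing in 15.7%. The median log2 difference of the 5 genes was 0.77, and that of all genes tested was −0.01.

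ALDOC averaged 1393 ± 309 (SD, n = 4) in central retina, 2.12 times the 656 ± 80.6 (SD, n = 3) of peripheral retina. Its log2 difference was 1.07 with an SE of 0.17, at a limma adjusted p of 0.0012. TPI1 averaged 49.7 ± 7.57 (n = 4) and 25.8 ± 4.32 (n = 3), a ratio of 1.93 and a log2 difference of 0.92 with an SE of 0.15 (limma adjusted p = 0.00137). For PGK1 the log2 difference was 0.77 with an SE of 0.14 (limma adjusted p = 0.00351), from means of 274 ± 48.7 (n = 4) and 159 ± 10.7 (n = 3). All 3 differences exceed the spread between libraries.

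ENO2 averaged 2139 ± 319 (n = 4) against 1505 ± 280 (n = 3), 1.42 times as much, and lay just past the threshold at a limma adjusted p of 0.0504. Its log2 difference of 0.51 had a 95% interval from 0.14 to 0.88, and no peripheral library reached a central one. HK2, at 49.1 ± 18.1 against 30.7 ± 16.1, had an interval from −0.03 to 1.44 around a log2 difference of 0.70 (limma adjusted p = 0.157), which spans both no difference and a more than 2-fold one. Other settings changed both results. ENO2 passed after quantile normalization (limma adjusted p = 0.00682) and with a minimum group mean of 10 (limma adjusted p = 0.0397). It also passed by limma when central retina replicate 2 (adjusted p = 0.0398) or replicate 3 of peripheral retina (adjusted p = 0.031) was left out. HK2 passed when replicate 2 of central retina (limma adjusted p = 0.0497) or of peripheral retina (limma adjusted p = 0.0434) was left out.

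Central retina replicate 4 was the highest central library for 14 of the 17 tested glycolytic enzymes, against 25.2% of all genes tested. Without it the log2 differences from peripheral retina were 0.92 for ALDOC, 0.83 for TPI1 and 0.67 for PGK1, each still called (limma adjusted p = 0.0011, 0.00435 and 0.00818).

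The 6 ganglion cell genes with a row moved with the same contrast. All 6 of 6 were higher in central retina by limma, and their summed level was 1967 to 3802 in central, 353 to 647 in peripheral retina, 481 to 706 in whole retina and 659 to 760 in whole eye, with 0 of the 6 at 0 in every library of a group. Cone genes numbered 6, of which 2 were higher (OPN1LW and OPN1SW) and 0 lower, with central sums of 1917 to 2740 and peripheral sums of 1680 to 2057. Among the 8 rod genes 0 were higher and 4 lower (CNGA1, NR2E3, PDE6A and SAG), with central sums of 10780 to 19012 and peripheral sums of 17585 to 25952. Among 5 Müller glia genes 4 were lower, with sums of 899.7 to 1180 and 1610 to 1877. Beside these counts, 12.5% of all genes were called higher and 8.76% lower. The part of these cell types in the levels of the glycolytic enzymes was not tested.

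Along the pathway, 17 glycolytic enzymes were tested of the 18 with a row, out of 25 listed symbols. Apart from the 5 genes above, 12 were tested, of which 7 were higher in central retina and 0 lower by limma, again 7 and 0 at an unadjusted p under 0.05. Among the 7 is PKLR, which met the minimum mean only through central retina. Among the 11 with a mean of at least 1 in both regions, a restriction chosen after seeing the data, 6 were higher and 0 lower. The median log2 difference of these 11 was 0.42, beside −0.01 over all genes and 12.5% of all genes called higher. Most steps of the pathway had at least 1 enzyme gene among the calls.

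PFKM, a subunit of phosphofructokinase, averaged 96.4 ± 11.5 in central retina against 61.8 ± 3.52 in peripheral retina (limma adjusted p = 0.00199). GAPDH, which follows TPI1 in the pathway, averaged 1758 ± 399 against 942 ± 125 (limma adjusted p = 0.00755). PGAM1, a phosphoglycerate mutase that acts before enolase, averaged 329.7 ± 30.1 against 245 ± 8.77 (limma adjusted p = 0.0273).

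For pyruvate kinase, the last enzyme, the muscle-type gene listed as PKM2 averaged 234 ± 53.7 against 144 ± 11.7 (limma adjusted p = 0.0187). Its liver and red cell counterpart PKLR was low everywhere, at 1.72 to 2.9 in central retina, 0.21 to 0.3 in peripheral retina, 0.23 to 0.58 in whole retina and 0.25 to 0.46 in whole eye. It met the minimum mean of 1 only through central retina, the group where it is high, so its call is no independent evidence of a difference. Of these calls, PGAM1 was lost without central replicate 4 (limma adjusted p = 0.067) or any of the 3 peripheral replicates (0.0664 to 0.1098), and PKM2 without peripheral replicate 2 (limma adjusted p = 0.0843). With central replicate 4 left out 7 of the 17 enzymes were called higher, PKLR among them, beside 1043 of all genes. With peripheral replicate 2 left out there were again 7, PKLR among them, beside 829 of all genes. The name GAPDH starts another gene name in the tables, and values of such genes may be exchanged in some libraries. TPI1, PGK1, GAPDH, ENO1 and other housekeeping enzymes also have processed copies in primate genomes, and how reads that match several places were counted is not given in the sources used here.

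**Figure D2:**
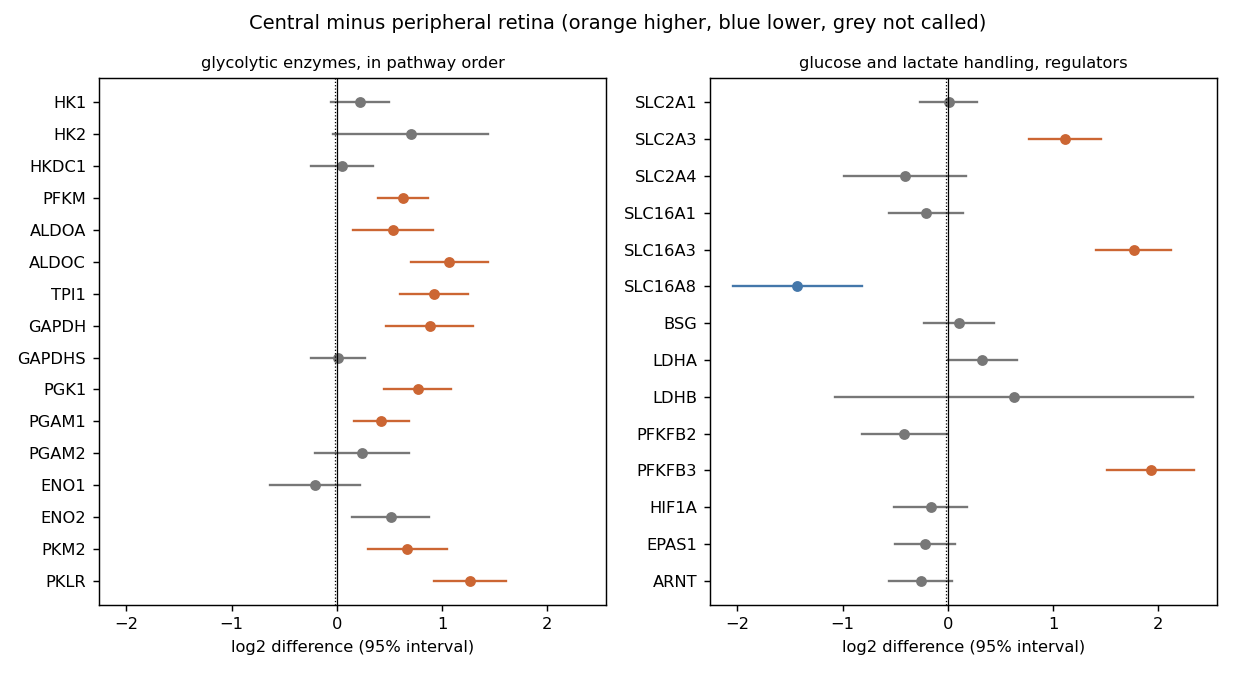
Log2 difference of central minus peripheral retina (horizontal axis) with limma's 95% interval for 16 tested glycolytic enzymes in pathway order (left) and for glucose and lactate transporters, lactate dehydrogenase and regulators (right), with a dotted line at the median of all genes. Of the 16 enzymes drawn 9 are called higher, among them PKLR, which met the minimum mean only through central retina, and 0 are lower, and on the right PFKFB3, SLC16A3 and SLC2A3 are higher and SLC16A8 is lower. Over all genes 12.5% were called higher and 8.76% lower.

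The paralogs of the 5 genes, which encode other forms of the same enzymes, did not all share these differences. ALDOA, the muscle-type aldolase, averaged 226 ± 47.1 against 155 ± 22.5 in the same order and passed at a limma adjusted p of 0.049, a call lost in 10 of 18 alternatives, 7 of them with 1 library left out (limma adjusted p up to 0.187, without peripheral replicate 2). ENO1, the widely expressed enolase, averaged 566 ± 121 against 656 ± 167 and did not pass (limma adjusted p = 0.48). HK1, the main hexokinase of brain, averaged 109 ± 16.5 against 92.4 ± 2.43 (limma adjusted p = 0.231). HKDC1 averaged 22.4 ± 3.11 against 21.6 ± 3.15 (limma adjusted p = 0.83). HK3, PGK2 and ENO3 were not analysed here.

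In the ratio of a gene to its paralog within a library, a scaling factor of that library cancels. ENO2 to ENO1 was 4.17, 3.58, 4.07 and 3.47 in central retina and 2.37, 2.44 and 2.15 in peripheral retina. It was 1.74 and 1.58 in the whole retinas and 1.35 and 1.47 in the whole eyes. The ranges of the 4 groups did not overlap, in the order central retina, peripheral retina, whole retina and whole eye.

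ALDOC to ALDOA was 6.45, 6.43, 5.52 and 6.29 in central retina and 4.46, 4.22 and 4.09 in peripheral retina. The whole retinas gave 2.9 and 2.7 and the whole eyes 3.09 and 4.2. Central retina was again apart from the other groups. HK2 to HK1 was 0.281 to 0.601 in central retina, overlapping the 0.196 to 0.545 of peripheral retina, and 0.178 to 0.22 in the 4 whole eye and whole retina libraries. These ratios were chosen after the values were seen and are given with no test.

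**Figure D3:**
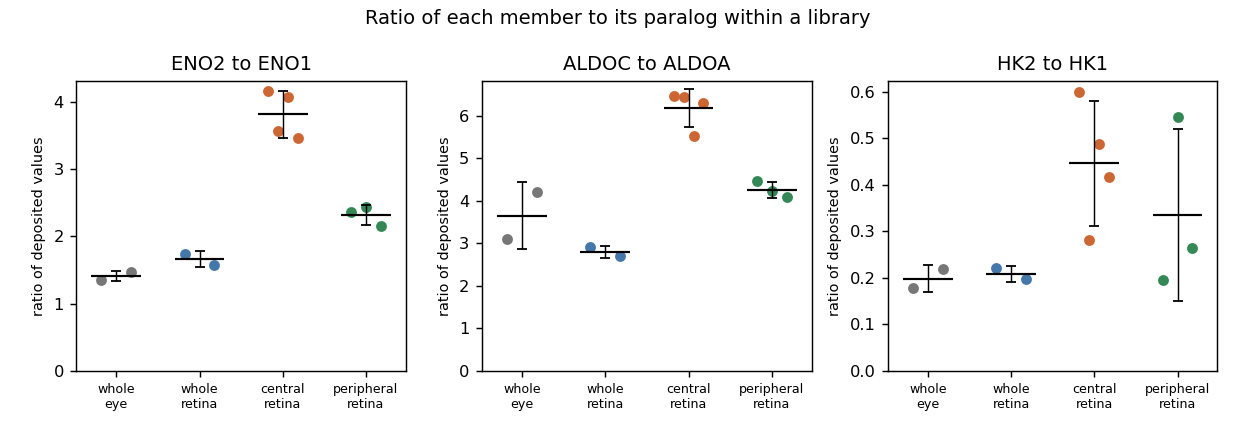
Ratio of deposited values of ENO2 to ENO1, ALDOC to ALDOA and HK2 to HK1 (vertical axes from 0) in each library of the 4 groups, with a line for the mean and a bar for the SD. The ENO2 to ENO1 ratio separates all 4 groups, from 3.47 to 4.17 in central retina down to 1.35 to 1.47 in whole eye, while HK2 to HK1 overlaps between the regions.

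Single regulators and transporters of the pathway differed between the regions too, in counts not far from the shares of all genes. PFKFB3, which makes the activator of phosphofructokinase, averaged 28.6 ± 2.87 (n = 4) against 6.75 ± 0.42 (n = 3), 4.24 times as much in central retina (limma adjusted p = 0.000101). It ranged from 24.79 to 31.75 in central retina, from 4.56 to 9.56 in whole retina and from 5.13 to 6.24 in whole eye. PFKFB2, of the same family, was 44.5 ± 10.2 against 58.7 ± 7.54 and did not pass (limma adjusted p = 0.132). Of 5 tested regulators PFKFB3 was the 1 higher and 0 were lower, with 1 lower by limma at an unadjusted p under 0.05. Beside this, 12.5% of all genes were called higher and 8.76% lower. HIF1A, the oxygen-sensitive activator of many glycolytic genes, averaged 39.9 ± 5.53 against 44.9 ± 7.21 (limma adjusted p = 0.49). Like GAPDH, it shares the start of its name with another gene in the tables.

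Of 9 tested genes of glucose and lactate handling, 2 were higher in central retina and 1 was lower. The shares of all genes were 12.5% higher and 8.76% lower. SLC16A3, a lactate exporter, averaged 50.7 ± 9.84 against 14.2 ± 2.61, a ratio of 3.58 (limma adjusted p = 7.68e-05). SLC2A3, the neuronal glucose transporter, averaged 27.0 ± 3.87 against 11.96 ± 2.19 (limma adjusted p = 0.000597). SLC16A8, the lactate transporter of the pigment epithelium, was lower at 5.01 ± 2.03 against 14.5 ± 2.06 (limma adjusted p = 0.00468), as were the 3 pigment epithelium markers in sum. SLC2A1, the glucose transporter of vessels, glia and photoreceptors, averaged 194 ± 26.8 against 192 ± 11.1 (limma adjusted p = 0.975). Its name starts other gene names in the tables. LDHA, a lactate dehydrogenase subunit, averaged 117 ± 13.9 against 92.9 ± 4.91 without overlap and did not pass (limma adjusted p = 0.139). The other subunit, LDHB, ranged from 7.16 to 39.3 in central retina, while the peripheral libraries held 7 to 8.38 (limma adjusted p = 0.5995).

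Among 7 tested hypoxia-inducible genes outside glycolysis, 4 were higher (ADM, EGLN3, NDRG1 and VEGFA) and 0 lower, with 1 lower by limma at an unadjusted p under 0.05. Of all genes, 12.5% were called higher and 8.76% lower. EGLN3, an oxygen-sensing hydroxylase, averaged 26.0 ± 6.99 against 9.69 ± 2.57 (limma adjusted p = 0.0021). Every regional library was below whole retina, which held 54.6 and 79.04, and whole eye, with 51.7 and 57.33, and EGLN3 was lower in central than in whole retina (limma adjusted p = 0.00134). Against whole retina, 1 of the 7 was higher in central retina (VEGFA) and 3 were lower (CA9, EGLN3 and P4HA1). In that comparison 18.9% of all genes were called higher and 29.8% lower. The median log2 difference of the 7 was −0.75 beside −0.10 for all genes. CA9 averaged 0.19 in central and 0.40 in peripheral retina and met the minimum mean of 1 only through whole eye and whole retina. Its lower call, which also enters the median, is therefore no independent evidence of a difference. Between the regions, the calls on ADM, NDRG1 and VEGFA were each lost when any 1 of several libraries was left out. Those on NDRG1 and VEGFA were also lost after quantile normalization. ADM was lost without central replicate 3 or 4 or peripheral replicate 1 or 2 (limma adjusted p = 0.0858 to 0.1523), NDRG1 without central replicate 1, 3 or 4 or peripheral replicate 1 or 3 (0.0552 to 0.1002), and VEGFA without central replicate 2, 3 or 4 or any peripheral one (0.0819 to 0.141). The routes that lead away from glycolysis held calls in both directions between the regions, beside 12.5% of all genes higher and 8.76% lower. In mitochondrial pyruvate entry 2 of 12 were higher (PC and PDP2) and 1 lower (PDK4), and in the citric acid cycle 2 of 12 were higher (DLST and OGDH) and 1 lower (SUCLG2). PDK4, a kinase that shuts off pyruvate dehydrogenase, averaged 1.89 ± 0.472 against 5.25 ± 1.96 (limma adjusted p = 0.0128), a call lost without peripheral replicate 1 (0.0544). The PC call was lost without central replicate 4 or peripheral replicate 1 or 2 (limma adjusted p = 0.0633, 0.0684 and 0.1156). OGDH, of the citric acid cycle, averaged 57.4 ± 4.47 against 33.9 ± 3.62 (limma adjusted p = 0.00097). Like GAPDH, the genes ADM, PC and OGDH share the start of their names with other genes in the tables.

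In glycogen metabolism 3 of 8 were higher (PGM1, PYGB and PYGM) and 2 lower, PYGL among them. The shares of all genes, 12.5% higher and 8.76% lower, apply to this list and the next ones as well. The brain form of glycogen phosphorylase, PYGB, averaged 57.9 ± 2.38 against 37.6 ± 1.86, while the liver form PYGL averaged 9.6 ± 0.794 against 17.3 ± 2.47 (limma adjusted p = 0.00894 and 0.00233). PGM1 was lost without peripheral replicate 1 or 2 (limma adjusted p = 0.0748 and 0.0631) and PYGM without peripheral replicate 2 (0.0635). Of 5 gluconeogenesis genes 1 was lower (FBP1, a call lost with any of 7 of the 11 libraries left out) and 0 higher, with 1 higher by limma at an unadjusted p under 0.05. Of 3 pentose phosphate genes 1 was lower and 0 higher (limma, also 0 at an unadjusted p under 0.05). That gene is RPE, an epimerase whose name starts that of the pigment epithelium gene RPE65.

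Whole retina was then set against whole eye. By limma 0 of the 5 genes were higher and 0 lower, also 0 and 0 at an unadjusted p under 0.05. Over all genes 0.168% were called higher and 2.1% lower. Both whole retinas lay above both whole eyes for ENO2 and HK2 (14% of all genes) and below them for ALDOC and PGK1 (17.6% of all genes). The log2 differences lay between −0.27 for PGK1 and 0.34 for HK2, with a median of 0.02 beside −0.01 for all genes. Intervals were wide with 2 libraries in each group: that of HK2 ran from −0.62 to 1.305 and that of TPI1 from −0.40 to 0.45. Of the other 12 glycolytic enzymes 0 were higher and 0 lower by limma, with 0 higher and 1 lower at an unadjusted p under 0.05.

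Central retina was also compared with whole retina. Of the 5 genes 4 were higher (TPI1, ALDOC, ENO2 and HK2) and 0 lower, with 4 and 0 by limma at an unadjusted p under 0.05, while 18.9% of all genes were called higher and 29.8% lower. The same 4 had every central library above both whole retinas, as had 24.1% of all genes. TPI1 had a ratio of means of 3.73 and a log2 difference of 1.81 with an SE of 0.17 (limma adjusted p = 6.07e-06). HK2 had a ratio of 2.54 and a log2 difference of 1.24 with an SE of 0.38 (limma adjusted p = 0.0187). ALDOC and ENO2 differed by 1.14 and 0.71 (limma adjusted p = 0.00048 and 0.00946). PGK1 differed by 0.34, with an interval from −0.02 to 0.69 (limma adjusted p = 0.111). Of the other 12 glycolytic enzymes 4 were higher and 1 lower by limma, beside the same shares of all genes. Among the 4 is PKLR, which met the minimum mean only through central retina. The median log2 difference of the 12 was 0.28, beside 1.14 for the 5 genes and −0.10 for all genes. Without whole retina replicate 2 the calls on ENO2 and HK2 were lost, at a limma adjusted p of 0.0821 and 0.132.

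Peripheral retina was set against the same 2 whole retina libraries, so these 2 comparisons share them. TPI1 alone of the 5 was higher, at a ratio of 1.94 and a log2 difference of 0.89 with an SE of 0.18 (limma adjusted p = 0.00246), and 0 were lower, with 1 lower by limma at an unadjusted p under 0.05. Of all genes 9.81% were called higher and 24.3% lower. The peripheral libraries were all above the whole retinas for TPI1 (21.7% of all genes) and all below them for PGK1 (35.6% of all genes). PGK1 differed by −0.43 with an interval from −0.81 to −0.05 (limma adjusted p = 0.0741). It passed without central retina replicate 4, at a limma adjusted p of 0.0471. ALDOC, ENO2 and HK2 differed by 0.08, 0.20 and 0.54 and did not pass (limma adjusted p = 0.808, 0.488 and 0.332). Of the other 12 glycolytic enzymes 1 was higher and 2 were lower by limma, beside the same shares of all genes. Their median log2 difference was −0.29, beside 0.20 for the 5 genes and −0.08 for all genes.

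Both comparisons with whole retina depend on scaling. Quantile normalization moved the median difference of all genes from −0.10 to 0.12 for central and from −0.08 to 0.16 for peripheral retina, and the share of calls that were higher from 38.9% to 59.5% and from 28.7% to 60.9%. Scaling by median ratios gave 47.1% and 41.2%. Measured from the median of all genes, the TPI1 difference was 1.92 as deposited, 1.82 after quantile normalization and 1.93 by median ratios for central retina, and 0.97, 0.94 and 0.98 for peripheral retina. PGK1 was 0.44, 0.46 and 0.46 above that median in central retina, and passed under both scalings (limma adjusted p = 0.00449 and 0.0386). The pigment epithelium and lens genes moved with both comparisons. In each region 3 of 3 and 5 of 5 were lower than in whole retina, at the sums given above. Of all genes, 29.8% were called lower in central and 24.3% in peripheral retina. With sums of at most 3.76 in a regional library, the lens genes met the minimum mean mainly through whole eye and whole retina. Their 5 of 5 is thus no independent evidence of a difference. The part of pigment epithelium and lens RNA in the result was not tested.

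**Figure D4:**
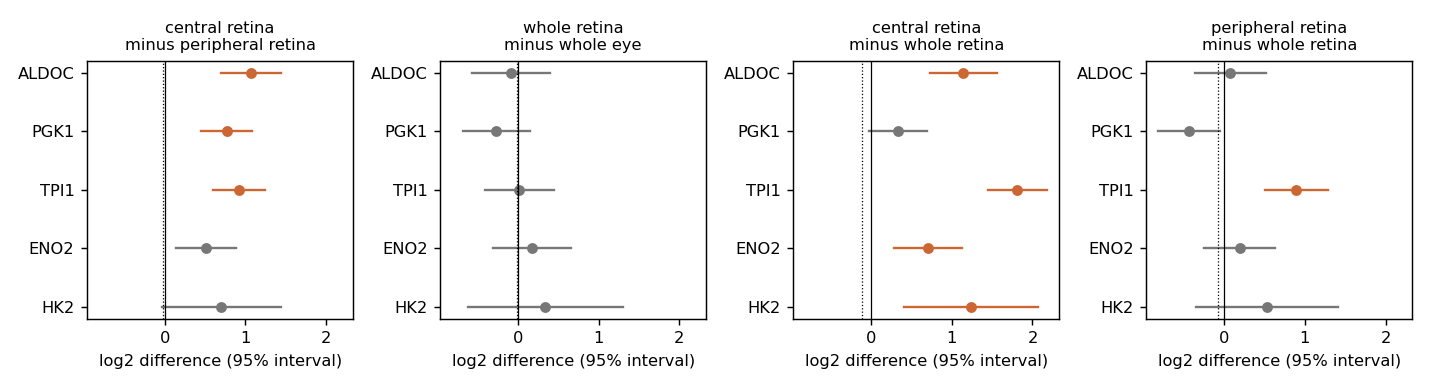
Log2 difference (horizontal axis) with limma's 95% interval for the 5 genes in the 4 comparisons, orange where called higher and grey where not called, with a dotted line at the median of all genes. TPI1 is called in 3 comparisons, ALDOC in 2, PGK1, ENO2 and HK2 in 1 each, and none differs between whole retina and whole eye by this test.

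The 5 genes differed in how alike their patterns were over the 11 libraries. Pearson's r of log2(value + 1) was 0.95 between TPI1 and ENO2, 0.92 between ALDOC and ENO2 and 0.88 between ALDOC and TPI1. PGK1 was least like the others, at 0.06 with HK2, 0.27 with TPI1, 0.33 with ENO2 and 0.64 with ALDOC. The libraries fall into 4 groups and share their scaling, so these values describe group differences as much as differences within a group.

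Among 4551 other genes, the pattern most like ALDOC was that of ATP6V1G2, a proton pump subunit, at r = 0.99, followed by BSCL2 and VAMP1 at 0.98 each. VAMP1, a vesicle fusion protein, had means of 125 in central, 31.2 in peripheral retina, 29.0 in whole retina and 34.2 in whole eye. Most like TPI1 was CALY at r = 0.99, with FRAT2 and JPH4 next at 0.99 each. Most like ENO2 were NAPA, RAB3A and SLC6A8 at r = 0.99, 0.97 and 0.97. RAB3A, a GTPase of synaptic vesicles, averaged 319 in central, 165 in peripheral retina, 139.8 in whole retina and 119.8 in whole eye. Most like PGK1 was the cone opsin gene OPN1LW at r = 0.96, with means of 378, 249, 323 and 360 in the same order of groups, then MAB21L2 and H1F0 at 0.95 and 0.94. For HK2 the highest values were lower, 0.94 with TMEM184B and 0.93 with both DECR2 and TMUB1.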

How the data were processed

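The authors deposited 1 table per library with 1 normalized signal value per gene, per the file headers, and how it was normalized is not stated. The submitters' processing notes name GSNAP, which aligns reads, and HTSeq, which counts them. As genome build and annotation were not given in the sources used here, coordinates and sequences are left out. Of 13083 entries, 27 without a value and 70 repeats equal to 2 decimals were dropped.

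Groups were taken from the tissue labels. limma 3.58.1 (R 4.3.3) with a variance trend was fitted to log2(value + 1) in all 11 libraries, for the 11925 genes whose mean reached 1 in some group, with two-sided tests and Benjamini-Hochberg adjustment at 0.05 over all genes. The fit was tested on simulated data with independent noise and few changed genes. That setting is simpler than these libraries, and no call here rests on it. Fold changes on this scale understate those of low genes. The members, gene lists and naming rule (all members, their paralogs, a few fixed pathway genes, up to 4 called genes per list, and the 3 genes most like each member among those with a group mean of at least 10) were chosen with earlier results of these data known. The search for like genes also left out repeated names, placeholder names of uncharacterized loci and names sharing a start with another, so that 4551 genes were searched. Some genes that met the rule are counted but not reported here by name. Tables and figures used numpy 2.4.6, pandas 2.3.3 and matplotlib 3.10.9.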

Additional observations from a re-analysis of the deposited data

Results flagged for a closer look

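In a group of 4 libraries, a value was marked where its gap to the nearest other divided by the group's range passed Dixon's 95% critical value, which chance passes in about 1 of 20 groups. Over 38 named genes in central retina, the only group of that size, 5 values were marked. ALDOC was 1851.04 in central retina replicate 4, with the next value at 1300.24. GAPDH was 2350.62 in the same library, above 1605.28. LDHB was 39.34 there, above 10.41, and also differed between replicates in whole eye (43.11 and 3.85) and whole retina (30.6 and 5.42). PKLR was 2.9 there, above 1.79. RPE was 33.48 in central retina replicate 2, above 11.13.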

How the results depend on the processing

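Each result was recomputed under 18 alternatives, 11 of which leave out 1 library. Of 20 results on the 5 genes, 12 kept direction and side of the threshold throughout, among them 6 of the 8 calls. For central against peripheral retina, ENO2 passed with a minimum mean of 10 (0.51) and after quantile normalization (0.66). With each library left out in turn, ENO2 ranged from 0.39 to 0.65 and HK2 from 0.41 to 1.09, and each passed in 2 of these 11 fits. Against whole retina, central PGK1 passed after quantile normalization (0.58) and median-ratio scaling (0.45), and HK2 lost its call with a replicate block (1.23, limma adjusted p = 0.07501). Peripheral PGK1 was −0.04 after quantile normalization and −0.32 after median-ratio scaling, called in neither. Over the 11 fits with a library left out, central HK2 ranged from 1.04 to 1.48 and ENO2 from 0.61 to 0.78, each losing its call in 1 fit, and peripheral PGK1 ranged from −0.56 to −0.31 and passed in 1. Uncalled values near 0 changed sign: TPI1 in whole retina against whole eye (−0.10 to 0.14), ALDOC in peripheral against whole retina (−0.0078 to 0.17), and, between the regions, HKDC1 (−0.020 after quantile normalization, −0.072 to 0.12 with a library left out) and SLC2A1 (−0.13 after quantile normalization, −0.077 with a replicate block, −0.077 to 0.079 with a library left out).

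Counts of genes moved as follows. Central against peripheral retina gave 829 to 1627 higher and 499 to 1386 lower genes with a library left out. Whole retina against whole eye gave 7 higher genes with a pseudocount of 0.1, 31 without a filter, 7 higher and 95 lower with a minimum mean of 10, 44 higher after quantile normalization, 11 higher and 152 lower with only the 2 groups, and 14 to 493 higher with a library left out. Central against whole retina gave 2121 lower with a minimum mean of 10 and 3675 higher after quantile normalization. Peripheral against whole retina gave 1717 lower and 3143 higher in the same settings, and 696 to 1195 higher with a library left out. The glycolytic enzymes called higher in central retina numbered 7 to 12, PKLR among them wherever it was tested, beside 829 to 1689 of all genes. The cause of these changes was not tested.

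Same-numbered libraries of central and peripheral retina deviated together in 1 of 3 pairs (r = −0.14, −0.06 and 0.36), so these libraries are taken to share only a number. With the replicate block, 1183 genes were higher and 886 lower between the regions, with 7 glycolytic enzymes among the higher. Without depth or a stated unit, precision rests on the spread between libraries alone.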

Other observations

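TPI1 and GAPDH act at neighbouring steps, and the ratio of their deposited values split the libraries by kind of sample. It was 0.0253 to 0.0323 in central retina and 0.0261 to 0.0280 in peripheral retina, against 0.0099 to 0.0112 in whole retina and 0.0106 to 0.0119 in whole eye. The ratio of PGK1 to GAPDH, in contrast, overlapped between all 4 groups, from 0.141 to 0.268. These ratios were chosen after the values were seen and carry no test, GAPDH has a name that starts another in the tables, and the part of tissue composition or preparation was not tested.

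HKDC1, a hexokinase relative, had the same placing as TPI1 against whole retina. Its mean was 22.4 in central and 21.6 in the peripheral libraries, 9.61 in whole retina and 13.6 in whole eye. It was higher than in whole retina by a log2 difference of 1.13 in central and 1.08 in peripheral retina, by limma after adjustment over all genes.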
